A study of Homo sapiens with 6 samples.

Results

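The genes described here are 7 neighbours of CDK12 on chromosome arm 17q, in the segment that is often gained together with HER2 in breast cancer. They are FBXL20, PPP1R1B, STARD3, PGAP3, MIEN1, GRB7 and ORMDL3. They were taken by gene symbol from a table of 17939 genes as genes flanking CDK12 in this segment, with HER2 itself left out. No measured value entered the rule, but they were chosen with earlier results of these data known. Other genes of the segment are not among them. The RNA came from LY2 cells, an estrogen receptor-positive, endocrine-resistant breast cancer cell line. One group of 3 libraries came from cells transfected with a pool of siRNAs to CDK12 at 30 nmol/L (siCDK12) and the other group of 3 from cells given a non-targeting pool at that dose (siCtrl), with harvest 48 hours later in both. Both groups were deprived of serum and kept free of tamoxifen metabolite before transfection. The groups rest on 1 cell line, and transcript reduction by a pool is incomplete. The comparison asks what loss of CDK12 transcript did to the genes that share its chromosomal neighbourhood.

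CDK12 is a kinase that phosphorylates RNA polymerase II as it elongates through a gene. Its locus lies beside HER2, and when this segment is amplified in breast tumours the copies often carry CDK12 and its neighbours along, so that several of the genes are overexpressed together. Their products have unrelated jobs. FBXL20 recruits substrates to a ubiquitin ligase, PPP1R1B (also called DARPP-32) switches protein phosphatase 1 off, STARD3 moves cholesterol to late endosomes, PGAP3 trims lipid anchors of surface proteins, MIEN1 is a small lipid-modified protein linked to cell migration, GRB7 is an adaptor that binds HER2 and other receptor tyrosine kinases, and ORMDL3 restrains the first enzyme of sphingolipid synthesis. The study lists LY2 as diploid for CDK12, and the copy number of the other genes of the segment was not analysed here.

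In LY2 cells, GRB7, PGAP3 and ORMDL3 rose with siCDK12. They were 3 of the 6 neighbours with enough transcript to test, and 0 fell, where 16.1% of all genes tested were called higher, 12.3% lower and 28.3% in either direction. The study itself, by another method, reported more genes lower than higher. The rises of GRB7, PGAP3 and ORMDL3 were small, between 11.98% and 19.9% of the siCtrl mean. STARD3, MIEN1 and FBXL20 did not pass the test, and PPP1R1B was close to 0 in every library. Of other genes tested between FBXL20 and ORMDL3, CDK12 and HER2 aside, GSDMB was called lower, and MED1 and IKZF3 were not called. ORMDL2, the paralog of ORMDL3 on chromosome 12, fell by 44.1% in the same libraries.

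The promoters of the 3 ORMDL genes are printed here because ORMDL3 was called higher and its close relative ORMDL2 lower. ORMDL1 was not called, and promoter activity was not measured. Each window starts 250 bases before the annotated start and ends 50 bases after it, read 5′ to 3′ on the gene's strand, from RefSeq on GRCh38.p14, and the entry at the outermost start was used where a gene had several. Capitals mark matches on either strand to a GC box (GGGCGG) or a CCAAT box (CCAAT).
ORMDL3 (chr17:39927552-39927851, minus strand): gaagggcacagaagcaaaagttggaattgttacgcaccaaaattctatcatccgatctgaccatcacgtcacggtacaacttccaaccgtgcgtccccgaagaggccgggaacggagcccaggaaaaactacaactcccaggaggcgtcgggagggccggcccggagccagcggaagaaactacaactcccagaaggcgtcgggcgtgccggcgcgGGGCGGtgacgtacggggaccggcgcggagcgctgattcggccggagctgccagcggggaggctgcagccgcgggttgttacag
ORMDL2 (chr12:55817791-55818090, plus strand): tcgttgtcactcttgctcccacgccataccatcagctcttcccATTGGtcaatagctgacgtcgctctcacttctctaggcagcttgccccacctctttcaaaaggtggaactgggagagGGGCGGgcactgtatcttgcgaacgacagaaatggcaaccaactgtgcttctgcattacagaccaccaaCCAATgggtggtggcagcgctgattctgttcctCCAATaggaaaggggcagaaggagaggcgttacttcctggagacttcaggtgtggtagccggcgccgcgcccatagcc
ORMDL1 (chr2:189784290-189784589, minus strand): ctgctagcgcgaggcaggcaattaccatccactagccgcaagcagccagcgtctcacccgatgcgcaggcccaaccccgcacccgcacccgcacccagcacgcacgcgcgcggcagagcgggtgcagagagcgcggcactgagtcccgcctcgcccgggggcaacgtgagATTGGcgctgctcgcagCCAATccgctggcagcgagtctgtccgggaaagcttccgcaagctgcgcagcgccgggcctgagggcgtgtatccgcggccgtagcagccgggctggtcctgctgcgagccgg

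The ORMDL3 window held 1 GC box and 0 CCAAT boxes, the ORMDL2 window 1 GC box and 3 CCAAT boxes, and the ORMDL1 window 0 GC boxes and 2 CCAAT boxes. Among 35116 RefSeq promoter windows of the same length, 45.0% held a GC box and 34.6% a CCAAT box, so that either motif is common. The search also covered the estrogen response element (AGGTCANNNTGACCT), the hexamer AGGTCA, which lies inside the full element, and the TATA box TATAAA. The full element occurred in 1 of the 35116 windows, the hexamer in 13.8% and the TATA box in 11.5%. None of these 3 motifs was present in the ORMDL windows. Promoter entries were matched for 5 of the 7 neighbours, all but PPP1R1B and GRB7. Among the other 4, MIEN1 held the hexamer once, with 1 GC box, STARD3 held 2 GC boxes, PGAP3 held 1 GC box, and FBXL20 held 1 GC box and 2 CCAAT boxes. No full element and no TATA box was found in them.

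The neighbours were measured in FPKM, fragments per kilobase of transcript scaled to the mapped total, which is a level per length and can be compared between genes. Sums of FPKM ranged from 448633 to 461038 over the 6 libraries, and the read depth of each library is not known from them. A gene was tested where its mean over the libraries reached 1 FPKM, which held for 11533. The Pearson r across genes was 0.9955 to 0.9966 for pairs of libraries of 1 group and 0.9897 to 0.9913 for pairs from different groups. CDK12 itself stood at 2.23, 2.83 and 2.44 FPKM with siCDK12 against 11.17, 10.7 and 10.3 FPKM with siCtrl, so that the libraries matched their labels. All 9 luminal epithelial markers were present, at a summed 5567 to 5626 FPKM with siCtrl and 5971 to 6115 FPKM with siCDK12. KRT8, KRT18, CDH1 and GATA3 were called higher, ESR1 was called lower, from 50.9 ± 1.58 to 40.4 ± 1.29 FPKM (SD, n = 3), and the other 4 were not called. None of 4 endothelial and 5 leukocyte markers reached 1 FPKM, with CD3E at 0. Of 5 basal markers, ACTA2 and TP63 reached 1 FPKM, the keratin KRT14 was at 0, and the sum was 9.80 to 10.73 FPKM with siCtrl and 10.3 to 10.6 FPKM with siCDK12. TP63 was called lower, from 2.05 ± 0.085 to 1.63 ± 0.0557 FPKM (SD, n = 3). Fibroblast markers summed to 7.80 to 8.64 FPKM with siCtrl and 10.7 to 11.2 FPKM with siCDK12, of which COL1A1 alone reached 1 FPKM. The luminal and fibroblast sums thus moved in the same direction as GRB7, PGAP3 and ORMDL3, though ESR1 and TP63 did not, and the part of these markers in those differences was not tested. In bulk RNA of this kind, fewer cells that express a gene and less RNA per cell cannot be told apart.

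The level of the 7 genes spanned a wide range, in the same order in both groups. MIEN1 was the most abundant, followed by ORMDL3, STARD3, GRB7, PGAP3, FBXL20 and PPP1R1B. The ranges of neighbours in this order did not overlap within either group, although MIEN1 and ORMDL3 came close, with the lowest siCtrl library of MIEN1 at 18.99 FPKM and the highest of ORMDL3 at 18.35 FPKM. With siCtrl, MIEN1 was at percentile 64.5 of the genes tested, ORMDL3 at 60.4, STARD3 at 56.0, GRB7 at 36.1, PGAP3 at 25.9 and FBXL20 at 1.62. The ratio of STARD3 to GRB7 was 1.97 with siCtrl and 1.60 with siCDK12, and that of ORMDL3 to STARD3 was 1.17 and 1.34.

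**Figure D1:**
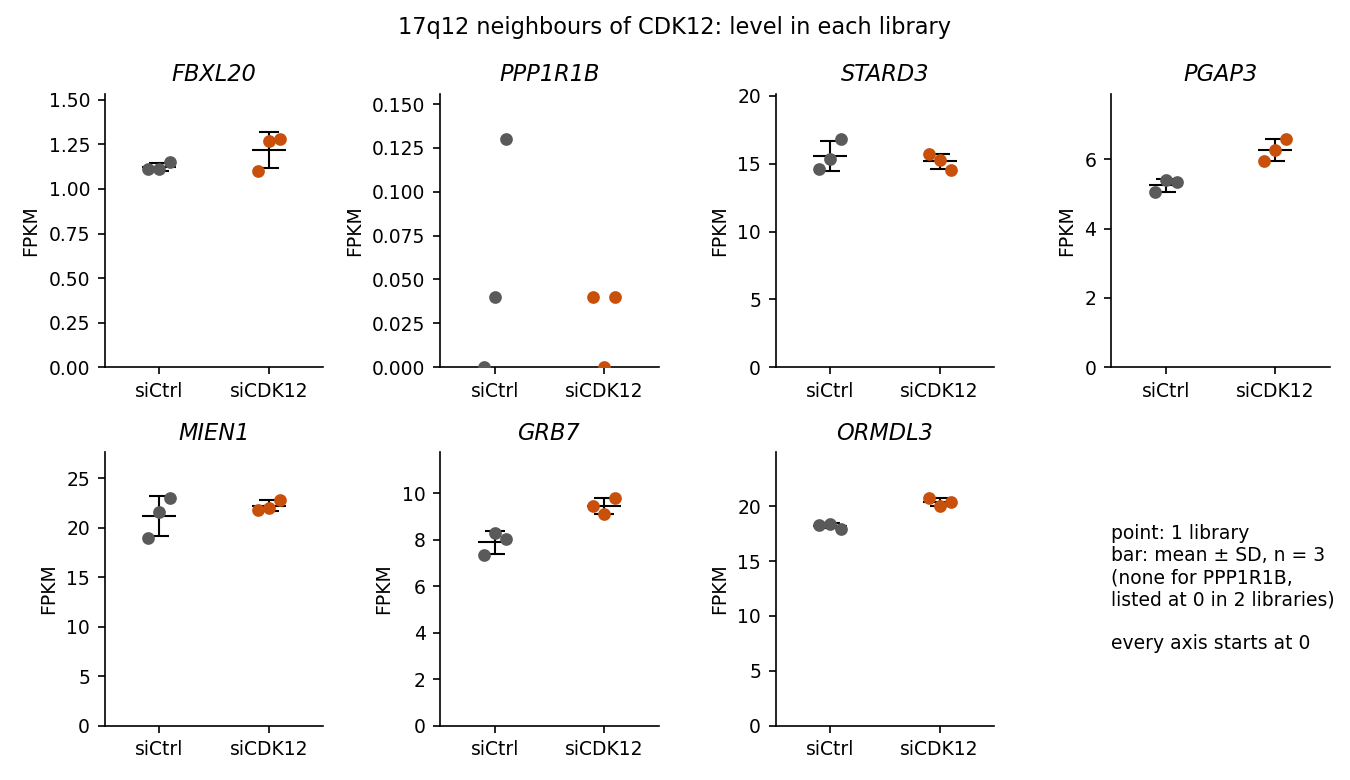
FPKM of each neighbour in each library, 1 panel per gene with its own axis from 0, siCtrl in grey and siCDK12 in orange; points are libraries and bars the mean ± SD of 3 libraries, with no bar for PPP1R1B. The siCDK12 points of PGAP3, GRB7 and ORMDL3 lie above all their siCtrl points, while those of FBXL20, PPP1R1B, STARD3 and MIEN1 overlap.

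GRB7 carries signals from receptor tyrosine kinases, among them HER2, through its SH2 domain. It lies at 39737938 to 39747285 on chromosome 17 (GRCh38), 170.4 kb from CDK12, on the plus strand with 15 exons. It stood at 9.46, 9.11 and 9.81 FPKM with siCDK12 and at 7.32, 8.30 and 8.04 FPKM with siCtrl. Every siCDK12 library was above every siCtrl library, and the lowest siCtrl library was replicate 1. The mean rose from 7.89 ± 0.508 to 9.46 ± 0.350 FPKM (SD, n = 3 each), or by 19.9%. On the log2(FPKM + 0.1) scale this was a fold change of 0.26 (SE 0.0613; adjusted p = 0.00969 by limma). An exact permutation of the libraries, two-sided, returned p = 0.1, which is the floor for 3 libraries against 3. The call was kept in each of 16 alternative settings, with adjusted p between 0.00818 and 0.0428.

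PGAP3 acts in the Golgi on glycosylphosphatidylinositol (GPI) anchors, removing a fatty acid so that the anchor can be remodelled. It lies at 39671122 to 39688057, 103.6 kb from CDK12, on the minus strand with 8 exons, and its annotated start is 36 bases from the annotated span of HER2. It stood at 5.94, 6.27 and 6.58 FPKM with siCDK12 and at 5.04, 5.39 and 5.33 FPKM with siCtrl. The groups did not overlap, and siCtrl replicate 1 was again the lowest library. The mean rose from 5.25 ± 0.187 to 6.26 ± 0.320 FPKM (SD, n = 3 each), or by 19.2%, with a log2 fold change of 0.25 (SE 0.0644, limma adjusted p = 0.0156; exact permutation p = 0.1). Of the 3 rises this was the least firm. Its call was lost without siCDK12 replicate 3 (limma adjusted p = 0.0658) and without siCtrl replicate 1 (limma adjusted p = 0.0529), and the range over its 16 alternatives was 0.0141 to 0.0658.

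ORMDL3 is a membrane protein of the endoplasmic reticulum that holds back serine palmitoyltransferase, and its locus is known for association with childhood asthma. It lies at 39921041 to 39927601, 353.5 kb from CDK12 and the farthest of the 7, on the minus strand with 4 exons. It stood at 20.78, 19.98 and 20.38 FPKM with siCDK12 and at 18.31, 18.35 and 17.94 FPKM with siCtrl. The groups did not overlap, and the libraries within each group lay close together. The mean rose from 18.2 ± 0.226 to 20.4 ± 0.400 FPKM (SD, n = 3 each), or by 11.98%, with a log2 fold change of 0.16 (SE 0.0404, adjusted p = 0.0131 by limma; exact permutation p = 0.1). The call was kept in 16 of 16 alternatives, with adjusted p up to 0.0465.

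STARD3 sits in the membrane of late endosomes, where its START domain binds cholesterol delivered from the endoplasmic reticulum. It lies at 39637144 to 39664201, 69.6 kb from CDK12, on the plus strand with 15 exons. It stood at 15.69, 15.24 and 14.56 FPKM with siCDK12 and at 14.60, 15.31 and 16.81 FPKM with siCtrl. The ranges of the groups overlapped, with siCDK12 replicate 3 the lowest library and siCtrl replicate 3 the highest. The log2 fold change was -0.04 with a 95% interval from -0.16 to 0.09 (limma adjusted p = 0.675), and it was 0.02 without siCtrl replicate 3. The exact permutation test gave p = 0.6.

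MIEN1 is a small prenylated protein of the Rdx family, which also holds the selenoproteins W and T. It lies between HER2 and GRB7 at 39728510 to 39730532, 161.0 kb from CDK12, on the minus strand with 4 exons. It stood at 21.77, 22.02 and 22.82 FPKM with siCDK12 and at 18.99, 21.54 and 23.03 FPKM with siCtrl. The siCtrl libraries spanned the whole range of the siCDK12 libraries, with siCtrl replicate 1 the lowest. The log2 fold change was 0.07 with a 95% interval from -0.07 to 0.21 (limma adjusted p = 0.428; exact permutation p = 0.5). Without siCtrl replicate 1 it was -0.0048. The annotated span of MIEN1 overlaps that of HER2 by 149 bases, and the sources used here do not state whether strand was used in counting, so that fragments from the shared bases could belong to either gene.

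FBXL20 is the F-box subunit of a cullin-RING ubiquitin ligase and the only member on the lower-coordinate side of CDK12. It lies at 39252663 to 39402556, 58.9 kb from CDK12, on the minus strand with 15 exons over 149.9 kb. It stood at 1.10, 1.27 and 1.28 FPKM with siCDK12 and at 1.11, 1.11 and 1.15 FPKM with siCtrl. Replicate 1 of siCDK12 lay below all siCtrl libraries and the other 2 lay above them. The log2 fold change was 0.10 with a 95% interval from -0.18 to 0.38 (limma adjusted p = 0.582; exact permutation p = 0.4). The gene was just above the filter of 1 FPKM, and a rise as large as that of GRB7 lies inside this interval.

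PPP1R1B is best known from dopamine-responsive neurons, where phosphorylation turns it into an inhibitor of protein phosphatase 1. It lies at 39626707 to 39636624, 59.1 kb from CDK12 and 519 bases from STARD3, on the plus strand. It was listed at 0.04, 0 and 0.04 FPKM with siCDK12 and at 0, 0.04 and 0.13 FPKM with siCtrl. At these levels the gene did not pass the filter and no difference was detectable. STARD3, which follows it on the same strand, was at 14.56 to 16.81 FPKM in the same libraries.

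With siCDK12, 3 of the 6 neighbours tested were called higher and 0 lower at a limma adjusted p under 0.05. The median log2 fold change of the 6 was 0.13 against 0.03 over all genes. In 3 of the 6 the siCDK12 and siCtrl ranges were apart, against 43.1% of all genes tested. With 6 genes, a share of this size is a description and was not tested as a set.

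The 3 rising genes were not uniformly correlated within groups. After the group means were removed, the Pearson r over the 6 libraries was 0.68 for PGAP3 and GRB7, 0.13 for GRB7 and ORMDL3 and -0.45 for PGAP3 and ORMDL3. These values share the same libraries and rest on few points, and they are given as a description.

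The calls did not follow distance from CDK12. The 2 nearest with a test, FBXL20 and STARD3, were not called, PGAP3 was called at 103.6 kb, MIEN1 was not at 161.0 kb, GRB7 was at 170.4 kb, and ORMDL3 was at 353.5 kb. GRB7 and MIEN1 lie 7405 bases apart, with log2 fold changes of 0.26 and 0.07. The genes next to CDK12 on either side were MED1, a Mediator subunit and estrogen receptor co-activator, at a log2 fold change of -0.01 (limma adjusted p = 0.905), and NEUROD2, a neuronal transcription factor at or near 0 in every library.

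The other genes within 1 Mb of CDK12 numbered 43, of which 28 were tested. Of these, 2 were called higher and 5 lower, which is 25% called against 28.3% of all genes, with a median log2 fold change of -0.01. RAPGEFL1, a guanine nucleotide exchange factor-like gene, fell by 0.80 on the log2 scale, GSDMB, a gasdermin, by 0.63, IGFBP4, which binds insulin-like growth factors, by 0.38, MED24, a Mediator subunit, by 0.20 and the connexin gene GJD3 by 0.15. The rises, PCGF2, a Polycomb component, at 0.18 and PSMB3, a proteasome subunit, at 0.14, were kept in 8 and 9 of 16 alternatives, and the fall of GJD3 in 9. PCGF2 lost its call without siCtrl replicate 1 or any siCDK12 library (limma adjusted p = 0.0867 to 0.0972), PSMB3 without siCDK12 replicate 1 or 3 or siCtrl replicate 1 or 2 (0.0734 to 0.146), and GJD3 without any siCDK12 library or siCtrl replicate 2 or 3 (0.0692 to 0.109). Among these window genes, both rises lay on the lower-coordinate side, where 13 were tested. All 5 falls lay on the higher-coordinate side, where 15 were tested. PGAP3, GRB7 and ORMDL3, counted apart as members, were called higher on that same side. Within 250 kb of CDK12, the tested genes besides the members and HER2, whose values are not given here, were MED1 and IKZF3, at -0.01 and -0.02. On all of chromosome 17 without the members, CDK12 and HER2, 125 of 705 tested genes were called higher and 91 lower. That set includes the window genes.

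ORMDL3 and GSDMB, which lies 2405 bases away on the lower-coordinate side, moved in opposite directions. GSDMB stood at 1.47, 1.30 and 1.24 FPKM with siCDK12 and at 2.63, 1.98 and 1.82 FPKM with siCtrl. Its groups did not overlap, and the limma adjusted p was 0.00798.

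**Figure D2:**
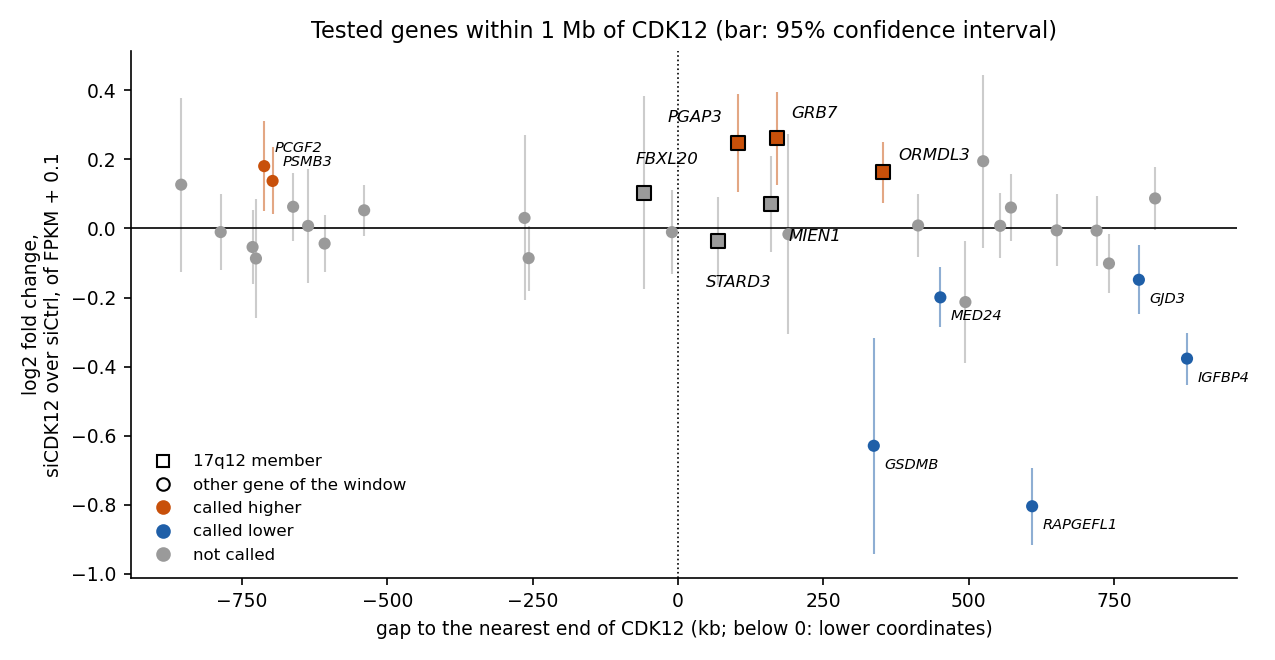
Log2 fold change of FPKM + 0.1 (siCDK12 over siCtrl, with 95% confidence interval) against the gap in kb to the nearest end of CDK12, for the tested neighbours (squares) and the other tested genes within 1 Mb (circles), HER2 and CDK12 left out. GRB7, PGAP3 and ORMDL3 stand above 0 between 103.6 and 353.5 kb, where MIEN1 and IKZF3 lie near 0. GSDMB, in the same stretch, and RAPGEFL1 are the lowest points.

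The role of each neighbour was followed into the genes it works with, in 7 lists drawn from general knowledge that together held 122 genes. Of the 110 tested, 17 were called higher and 16 lower, which is 30.0% called against 28.3% of all genes, and the median log2 fold change was 0.02 against 0.03.

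In sphingolipid synthesis, the pathway that ORMDL3 restrains, 0 of 18 tested genes were called higher and 6 lower, with a median of -0.11. ORMDL2 stood at 11.24, 12.17 and 13.51 FPKM with siCDK12 and at 22.69, 21.73 and 21.64 FPKM with siCtrl. The highest siCDK12 library was far below the lowest siCtrl library, with a log2 fold change of -0.84 (SE 0.0625; adjusted p = 1.06e-05 by limma). SPTSSA, a small subunit that activates serine palmitoyltransferase, fell by 0.51 on the log2 scale, and DEGS2, which desaturates and hydroxylates dihydroceramide, fell by 0.40. The other 3 that fell, named after their values were seen, were UGCG, which makes glucosylceramide, by 0.32, the serine palmitoyltransferase subunit SPTLC1 by 0.24, and SPTSSB, another small subunit, by 0.18. The call of UGCG was lost without siCDK12 replicate 2 (limma adjusted p = 0.0512) or siCtrl replicate 1 (0.0594). The list thus held falls both in subunits of the enzyme and in 1 of its restraining proteins.

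ORMDL1, the other paralog, had a log2 fold change of 0.13 and missed the threshold (limma adjusted p = 0.053), with groups that did not overlap. The 3 ORMDL genes had nearly equal shares of their summed FPKM with siCtrl, 30.5% ± 0.0912 for ORMDL3, 36.9% ± 0.933 for ORMDL2 and 32.7% ± 1.01 for ORMDL1 (SD, n = 3). With siCDK12 the shares were 37.7% ± 1.58, 22.7% ± 1.36 and 39.6% ± 0.223, so that ORMDL2 went from the highest to the lowest of the 3. The sum over the family was 59.7 ± 0.860 FPKM with siCtrl and 54.1 ± 1.89 FPKM with siCDK12 (SD, n = 3; exact two-sided permutation p = 0.1). Coding sequences of ORMDL3 and ORMDL2 were 73.9% identical and their transcripts shared no run longer than 17 bases. How reads were assigned between these paralogs was not tested.

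**Figure D3:**
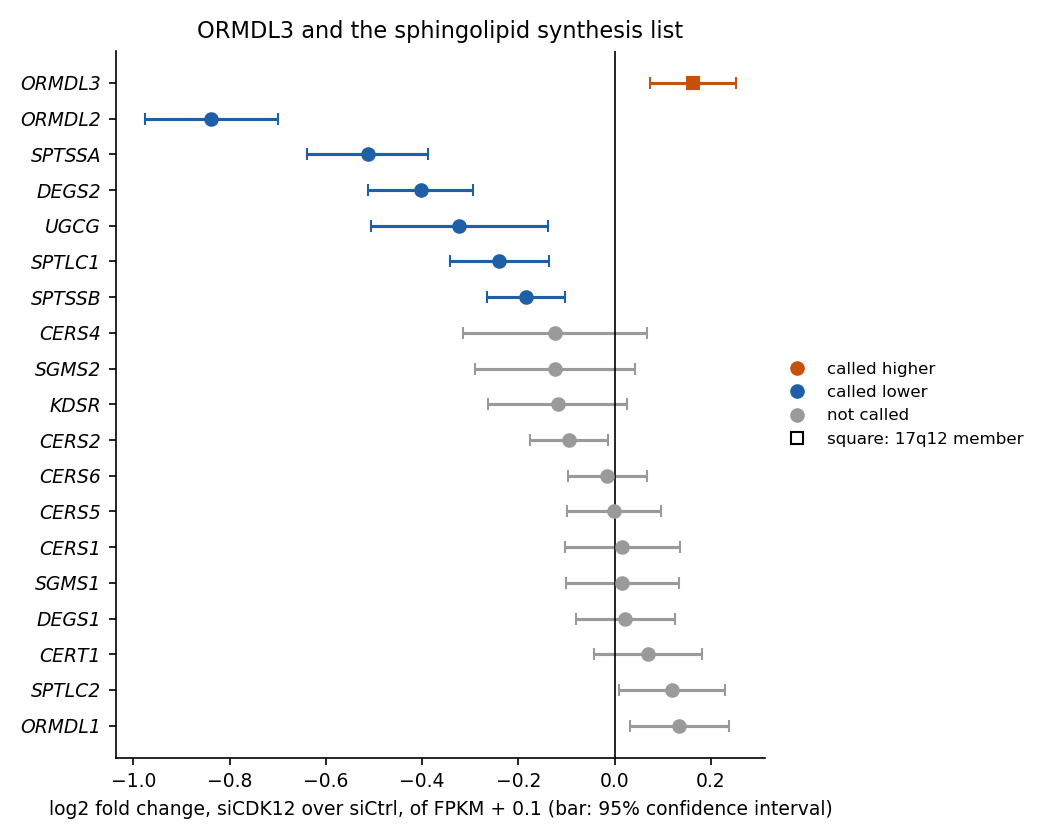
Log2 fold change of FPKM + 0.1 (siCDK12 over siCtrl, with 95% confidence interval) for ORMDL3 (square) and the 18 tested genes of the sphingolipid synthesis list (circles), coloured by call. ORMDL3 is the only one called higher, at 0.16, and ORMDL2, at -0.84, is the lowest of the 6 called lower.

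Among genes of GPI anchor synthesis and transfer, the pathway of PGAP3, 6 of 29 tested were called higher and 3 lower, with a median of 0.01. The 3 falls were the ethanolamine phosphate transferase PIGO (by 0.25 on the log2 scale), the mannosyltransferase PIGB (by 0.29) and the transamidase subunit PIGS (by 0.23), and each was kept in all 16 alternatives. Among the rises, PIGX at 0.24 and PIGL at 0.34, chosen after their values were seen, were called in every alternative that tested them, 16 and 15. The other 4 rises, PIGT, PIGU, PIGY and DPM3, were each lost when certain single libraries were left out, with limma adjusted p up to 0.11, 0.0612, 0.0817 and 0.101. The list had 2 genes higher without siCDK12 replicate 1, 3 without siCtrl replicate 1 or 2, and 4 or 5 without any of the others.

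Among adaptors and partners of GRB7, 2 of 8 tested were called higher and 1 lower, with a median of 0.08. GRB10, its paralog on chromosome 7, stood at 1.41, 1.70 and 1.43 FPKM with siCDK12 and at 2.34, 2.44 and 2.37 FPKM with siCtrl. Its groups did not overlap, and it fell by 0.63 on the log2 scale (limma adjusted p = 0.00162). GRB14, the other paralog, had a log2 fold change of 0.16 (limma adjusted p = 0.281). RND1 rose by 0.41 and the adaptor SHC1 by 0.13, whose call was lost without siCDK12 replicate 1 or 2 (limma adjusted p = 0.052 and 0.0529). The coding sequence of GRB7 was 59.2% identical to that of GRB10 and 59.0% to that of GRB14.

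Among genes of cholesterol transfer and late endosomes, the setting of STARD3, 0 of 14 tested were called higher and 3 lower, with a median of -0.03. LIPA, the lysosomal lipase that frees cholesterol from its esters, fell by 0.41 on the log2 scale, MOSPD2, which tethers proteins such as STARD3 to the endoplasmic reticulum, by 0.27, and the oxysterol-binding protein OSBP by 0.20. MOSPD2 kept its call in 11 of 16 alternatives and lost it without siCDK12 replicate 1 or 3 or siCtrl replicate 2 (limma adjusted p = 0.0679 to 0.0981). STARD3NL, a relative of STARD3 without the START domain, had a log2 fold change of 0.10 (limma adjusted p = 0.239).

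Among ubiquitin ligase subunits and relatives of FBXL20, 4 of 21 tested were called higher and 1 lower, with a median of 0.08. The F-box genes FBXL16 and FBXL19 rose by 0.34 and 0.23, and CAND1, which exchanges F-box subunits on the cullin, fell by 0.20. The other 2 rises were FBXL18 at 0.31 and FBXL17 at 0.18. FBXL17 kept its call in 6 of 16 alternatives, of which only 1 left out a library, siCtrl replicate 2, and the other 5 such fits gave a limma adjusted p of 0.0746 to 0.147. FBXL2, the closest relative, was below the filter, at 0.49 to 0.61 FPKM.

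Among genes of protein phosphatase 1 and protein kinase A signalling, the setting of PPP1R1B, 4 of 13 tested were called higher and 2 lower, with a median of 0.07. PRKACA, a catalytic subunit of protein kinase A, rose by 0.22 and the phosphatase 1 inhibitor PPP1R2 by 0.19. PPP3CB, a catalytic subunit of calcineurin, fell by 0.35. PRKACB, another catalytic subunit of protein kinase A, named after its values were seen, rose by 0.24. Its call was kept in 15 of 16 alternatives. The calls of PPP1CB (0.12) and PPP1CC (-0.10), a pair of phosphatase 1 catalytic subunits named after their values were seen, were kept in 5 and 8 of 16 alternatives. Without siCDK12 replicate 1 the list had 2 genes higher and 1 lower, and leaving out any other library gave 3 or 4 higher and 1 lower. The paralogs PPP1R1A and PPP1R1C, like PPP1R1B, did not pass the filter. Among relatives of MIEN1 and prenylation enzymes, 1 of 7 tested was called, SELENOW, the selenoprotein W gene, which rose by 0.20. SELENOT had a log2 fold change of -0.08 (limma adjusted p = 0.186).

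**Figure D4:**
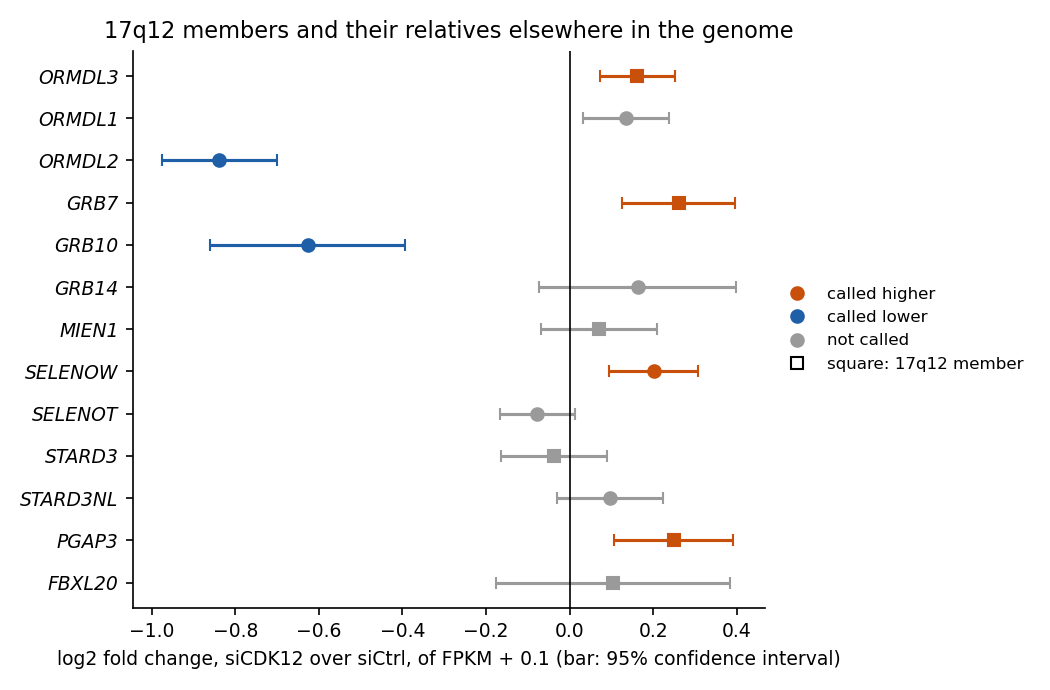
Log2 fold change of FPKM + 0.1 (siCDK12 over siCtrl, with 95% confidence interval) for the tested neighbours (squares) and their relatives elsewhere in the genome (circles), coloured by call. ORMDL2 and GRB10 lie below 0, at -0.84 and -0.63, while ORMDL3 and GRB7 lie above it, at 0.16 and 0.26.

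The genes most like each rising neighbour were found by the Pearson r of log2(FPKM + 0.1) over the 6 libraries, which fall into 2 groups, so that any gene that moved between them scores high. They were MRPL30 (r = 0.995) and ATAD1 (0.994) for PGAP3, RAVER1 (0.997) and SOX12 (0.994) for GRB7, and DNAAF10 and IKZF4 (both 0.998) for ORMDL3. SOX12 was not itself called, at a log2 fold change of 0.06 (limma adjusted p = 0.22). In all, 177 genes exceeded an r of 0.95 with PGAP3, 214 with GRB7 and 398 with ORMDL3.

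**Figure D5:**
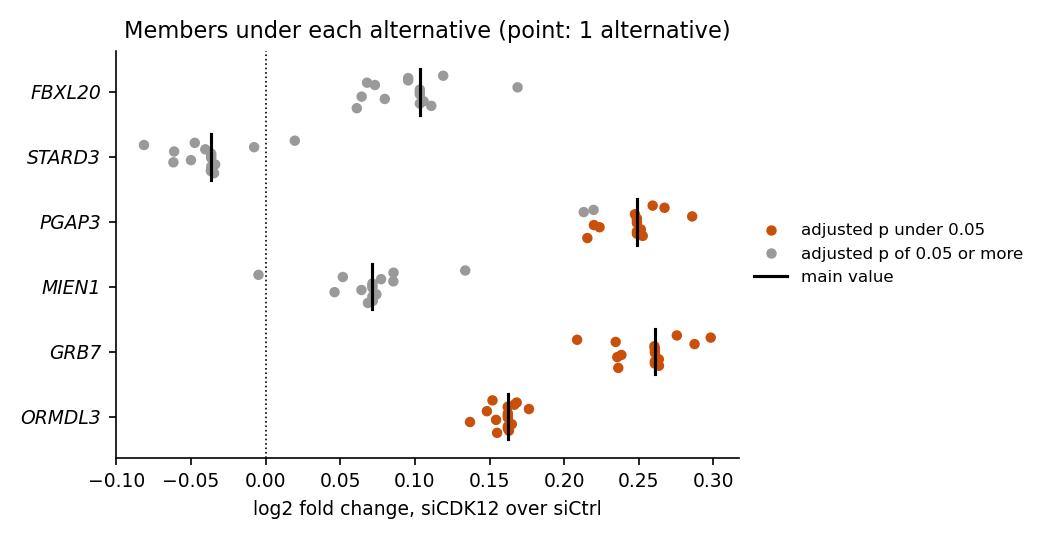
Log2 fold change (siCDK12 over siCtrl) of each tested neighbour under each alternative setting (points, orange where the adjusted p was under 0.05) with the main value as a black line. GRB7 and ORMDL3 are orange throughout, PGAP3 has 2 grey points, and MIEN1 and STARD3 each cross 0 once.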

How the data were processed

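Total RNA of LY2 cells was sequenced as paired ends on the BGISEQ platform. The values are FPKM that the authors deposited for each gene and library. Bowtie2, RSEM, DESeq2 and GRCh38 are named in the processing notes of the submitters. Whether strand was used in counting is not given in the sources used here. The study's methods state 1 nominal depth for all libraries. FPKM is not a count, so that the depth of each library and counting intervals could not be derived and no count model was fitted. Transcripts of a gene were summed in the table, and its function annotation columns were not used.

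Where its mean reached 1 FPKM, a gene was tested on log2(FPKM + 0.1) by limma 3.58.1 (R 4.3.3) with a variance trend, two-sided, with Benjamini-Hochberg adjustment over 11533 genes and a threshold of 0.05. The pseudocount understates changes of low genes. Exact permutation tests used scipy 1.17.1. The steps were tested on simulated data. Gene spans came from RefSeq (17908 genes matched by ID), and coding sequences and exons from GENCODE v44 canonical transcripts. Named genes were the 7 members, CDK12, paralogs, up to 3 called genes per list and up to 6 in the window by smallest p, the genes next to CDK12 and the 2 most like each called member; exceptions are stated. The members and lists were chosen with earlier results of these data known. The study describes the libraries as biological replicates.

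Alternatives were pseudocounts of 1 and 0.01, no filter or a mean of 5 FPKM, 3 other scalings, 2 other variance estimates, a replicate block and leaving out each library. Figures were drawn with matplotlib 3.10.9.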

Additional observations from a re-analysis of the deposited data

How the results depend on the processing

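GRB7 and ORMDL3 kept their direction and call in all 16 alternatives, and PGAP3 in 14, with 0.21 and 0.22 on the log2 scale where its call was lost, without siCDK12 replicate 3 and without siCtrl replicate 1. Leaving out each library in turn gave PGAP3 0.21 to 0.29, MIEN1 -0.0048 to 0.13 and STARD3 -0.0815 to 0.02, and neither MIEN1 nor STARD3 was called in any alternative. FBXL20 could not be fitted with the filter at a mean of 5 FPKM and was not called in its other 15. PPP1R1B had a value only with no filter (log2 fold change -0.24, limma adjusted p = 0.648). Over all genes, leaving out a library gave 1207 to 1603 called higher, the fewest without siCDK12 replicate 3. Median-ratio scaling gave 1371 higher and 1683 lower (44.9% higher) and quantile normalization 1552 and 1592 (49.4%), against 56.7% in the main setting. The median log2 fold change of all genes was 0.0037 with median-ratio scaling and 0.013 with quantile normalization, against 0.029 in the main setting. Window genes called higher numbered 0 with no filter, with median-ratio scaling and with no variance trend, 1 with quantile normalization, and 0 to 2 when a library was left out. Partner genes called higher numbered 9 to 15 when a library was left out. The cause of these shifts was not tested, and the fits without a library also rest on fewer libraries. Replicate numbers are shared between groups. Deviations of same-numbered libraries correlated at -0.0029, 0.020 and -0.028, and those of differently numbered libraries at -0.096 to 0.096. Whether same-numbered libraries were prepared together cannot be told from these values. The replicate block gave 1550 genes higher and 1208 lower, 3 neighbours higher, 2 window genes higher and 4 lower, and 13 partner genes higher and 15 lower. At the levels of FBXL20 and PPP1R1B, differences of the size seen in GRB7 may not be detectable.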
